A study of Homo sapiens with 19 samples.

Results

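In K562, a leukaemia cell line of erythroid character that makes fetal and embryonic globins, 6 genes were picked out because their RNA was far higher in the nucleus than in the cytoplasm. They are FRMD5, a FERM-domain gene of the band 4.1 superfamily; OR2B2 and OR51B6, which encode olfactory receptors; OMD, which encodes the bone matrix proteoglycan osteomodulin; LINC01028, a long noncoding RNA gene; and TMEM14EP, a processed pseudogene of the TMEM14 family. They were selected on their exon counts in nucleus against cytoplasm and found by symbol among the 58051 human genes of the count tables, so that excess is described here and not tested. They were grouped as transcripts lying inside other genes. By the GENCODE 29 annotation that description holds for OMD, LINC01028, TMEM14EP and OR51B6, and it does not hold for FRMD5 and OR2B2, which lie in no annotated gene.

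RNA was sequenced from untreated K562 whole cells and from their cytoplasm, nucleus and nuclear wash, with 4 libraries each, all depleted of ribosomal RNA, and the wash was also sequenced in 3 libraries without that depletion. The labels name no separate cultures behind the replicates. Each p-value therefore weighs a difference against library-to-library spread only, part of which may be technical. Exon counts per library ran from 1373755 to 7955415 in the depleted groups (1373755 to 2643131 in the nucleus) and from 923464 to 1801293 in the undepleted wash. The 9 erythroid markers were all above 1 CPM (counts scaled to a common library size) in each depleted group, and their sum was 2106 to 2633 CPM in whole cells and 525 to 618 CPM in the nucleus. Of 8 markers of olfactory sensory neurons, OMP, CNGA2, RTP1 and RTP2 were at 0 in whole cells and 2 were above 1 CPM (summed over the list 51.5 to 62.5 CPM). Of 8 markers of osteoblasts and fibroblasts LUM was at 0 and 2 were above 1 CPM (11.3 to 12.4 CPM). Of 4 epithelial markers 3 were above 1 CPM (377 to 446 CPM), and so were 3 of 5 lymphoid ones (90.8 to 157 CPM). The part of such RNA in the results was not tested.

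Messenger RNAs leave the nucleus after splicing, whereas introns are cut out and broken down inside it. Many long noncoding and antisense RNAs are also kept there. Olfactory receptor genes, mostly with a single coding exon, sit in large clusters and are known for their use in the nose, and one such cluster surrounds the beta-globin genes. Each gene is read here beside its neighbours and hosts, strand by strand.

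The counts themselves showed how overlaps were treated. Of 1252 genes with a single exon block that lie inside a gene on the same strand and had at least 20 exon counts, 1230 (98.24%) had a gene-body count of 0, against 1 of 1540 (0.06%) that lie only inside a gene on the opposite strand and 2 of 1528 (0.13%) that overlap no gene. Gene-body counting was thus strand-aware and dropped reads shared by genes of one strand. Exon counts kept reads of such inner genes: OR51B4, inside longer genes of its strand, had 121, 159, 232 and 149 exon counts in the cytoplasm with a gene-body count of 0. The exon counts of LINC01028 can therefore hold RNA from the introns of KCNJ16 on its strand. On the strand opposite to MALAT1, one of the most abundant nuclear RNAs, the gene AP000769.2 held 0.138% of MALAT1's density in the nucleus and 0.166% in the cytoplasm. Reads on the wrong strand were therefore few at that locus.

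FRMD5 (ENSG00000171877) spans chr15:43870761-44195252 on the minus strand (GRCh38), 324492 bp with 6673 bp of exon in 19 blocks. It holds 3 processed pseudogenes (PIN4P1, ACTBP7 and GAPDHP55), none of which passed the filter on low counts. OR2B2 (ENSG00000168131) is a single exon at chr6:27911185-27912396 on the minus strand, in the histone gene cluster. OMD (ENSG00000127083) lies at chr9:92414245-92424461 on the minus strand, inside CENPP, which runs the other way over chr9:92325484-92620533 and encodes a subunit of the CENP-O complex of the centromere. TMEM14EP (ENSG00000221962) lies at chr3:152339695-152340990 on the minus strand, inside MBNL1 (plus strand, chr3:152243828-152465780), which encodes the splicing regulator muscleblind-like 1. LINC01028 (ENSG00000267603) lies at chr17:70051277-70068095 on the plus strand, overlaps the potassium channel gene KCNJ16 on that strand, and sits within the antisense gene AC005208.1 on the minus strand. OR51B6 (ENSG00000176239) is a single exon at chr11:5351508-5352446 on the plus strand. It lies within long transcript models of the gamma-globin gene HBG2 (chr11:5253190-5505605), the epsilon-globin gene HBE1 and the receptor gene OR51B5, all on the minus strand.

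The RefSeq promoter table of GRCh38.p14 had windows for 2 of the 6 genes. The 250 bases before the more upstream of 2 FRMD5 starts (chr15:44195272-44195521, minus strand) and before LINC01028 (chr17:70051021-70051270, plus strand) are printed because FRMD5 lies in no other gene and LINC01028 begins inside one. Capitals mark the letters CCAAT, known as the CCAAT box, and GATAA, the core of a GATA-factor motif, on both strands (on the minus strand they read ATTGG and TTATC). No match overlaps another.
FRMD5: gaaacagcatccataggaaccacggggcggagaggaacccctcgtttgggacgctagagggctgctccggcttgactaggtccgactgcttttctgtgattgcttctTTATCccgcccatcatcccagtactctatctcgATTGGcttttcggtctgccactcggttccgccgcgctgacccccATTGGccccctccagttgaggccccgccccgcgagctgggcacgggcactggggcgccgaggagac
LINC01028: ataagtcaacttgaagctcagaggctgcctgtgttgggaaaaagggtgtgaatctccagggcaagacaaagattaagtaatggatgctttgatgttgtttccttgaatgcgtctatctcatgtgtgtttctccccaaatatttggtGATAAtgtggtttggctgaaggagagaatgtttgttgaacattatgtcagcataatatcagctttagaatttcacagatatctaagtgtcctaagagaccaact
The FRMD5 window held 19 CpG pairs and 62.8% G and C, and the LINC01028 window held 1 CpG pair and 39.2%. The median over 35116 windows of that length was 11 CpG pairs. The printed FRMD5 window had 2 matches to CCAAT, letters that 32% of all windows hold, and 1 match to GATAA, held by 20.4% of windows. The window of the other FRMD5 start had 0 matches to CCAAT and 2 to GATAA. Which start was used was not tested. LINC01028 had 1 match to GATAA and 0 to CCAAT. These are matches of letters only.

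TMEM14EP is shown beside the coding sequence of TMEM14C, the closest of the 3 TMEM14 genes it was aligned with, to show how far reads from the pseudogene can be told from those of the expressed genes. The stretch of 60 bases lies at chr3:152340837-152340896 on the minus strand, and capitals mark the 12 positions at which both sequences differ.
TMEM14EP: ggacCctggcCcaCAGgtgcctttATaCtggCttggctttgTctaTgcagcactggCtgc
TMEM14C: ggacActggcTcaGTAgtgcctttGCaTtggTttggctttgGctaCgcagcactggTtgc
Over the aligned part of its short transcript, TMEM14EP was identical to TMEM14C at 246 of 323 bases (76.2%) and to TMEM14B at 238 of 330 (72.1%). None of its 1247 stretches of 50 bases occurred in a transcript of another gene. The same was true of FRMD5, OMD, LINC01028 and OR51B6, and OR2B2 shared 2 of its 1163 stretches (0.172%) with its neighbour OR2B6. At that length these genes thus shared few or no exact stretches with annotated transcripts of other genes. Copies with mismatches and sequence outside annotated transcripts were not searched, and the placing of reads was not tested.

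All levels that follow are exon counts as CPM, scaled by the TMM method, unless a density is named. FRMD5 measured 57.4, 62.2, 70.7 and 68.5 CPM in the 4 nuclear libraries and 17.3, 25.5, 29.4 and 15.5 in whole cells. The wash gave 4.78, 5.76, 3.03 and 2.66 CPM, the cytoplasm 0.595, 0.573, 0.735 and 0.937, and the undepleted wash 3.40, 0.714 and 3.27. Every nuclear library was above every whole-cell library, every whole-cell library above every depleted wash library, and every wash library above every cytoplasmic one. OR2B2 showed the same order, with 44.4, 59.8, 32.9 and 36.8 CPM in the nucleus and 15.1, 18.7, 17.1 and 14.3 in whole cells. Its wash libraries had 2.94, 2.96, 2.68 and 1.84 CPM, its cytoplasmic libraries 0.397, 0.287, 0.588 and 0.781, and its undepleted wash libraries 1.13, 2.14 and 0.

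OMD was uneven within the nucleus, at 29.6, 28.2, 10.6 and 10.4 CPM, and its lowest nuclear library stood just above the highest whole-cell one. Whole cells had 6.78, 9.77, 7.67 and 5.0 CPM, the wash 2.21, 2.02, 0.892 and 0.818, the cytoplasm 0.198, 0.143, 0.294 and 0, and the undepleted wash 2.27, 0.714 and 0. LINC01028 split the nuclear libraries in the same way, at 52.5, 44.3, 23.9 and 23.4 CPM. Whole-cell libraries had 9.04, 18.9, 17.4 and 9.55 CPM, wash libraries 3.31, 2.49, 0.535 and 0.818, and cytoplasmic libraries 0.397, 0.430, 0.441 and 0.156. In the undepleted wash LINC01028 had a count of 0 in all 3 libraries.

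TMEM14EP had 30.5, 18.9, 15.0 and 13.5 CPM in the nucleus and an even 9.04, 9.57, 9.40 and 8.19 in whole cells. Its wash libraries had 1.47, 1.09, 0.535 and 1.02 CPM, its cytoplasmic ones 0.397, 0.143, 0.147 and 0.156, and its undepleted ones 1.13, 0 and 0. OR51B6 was the most uneven, with 43.9, 37.5, 7.62 and 6.23 CPM in the nucleus and 10.9, 19.7, 9.24 and 5.91 in whole cells. The wash had 4.05, 2.49, 1.25 and 0.614 CPM, the cytoplasm 0.793, 0.430, 0.147 and 0.156, and the undepleted wash 3.40, 0.714 and 2.18. Here nuclear and whole-cell libraries overlapped, as did wash and cytoplasm.

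**Figure D1:**
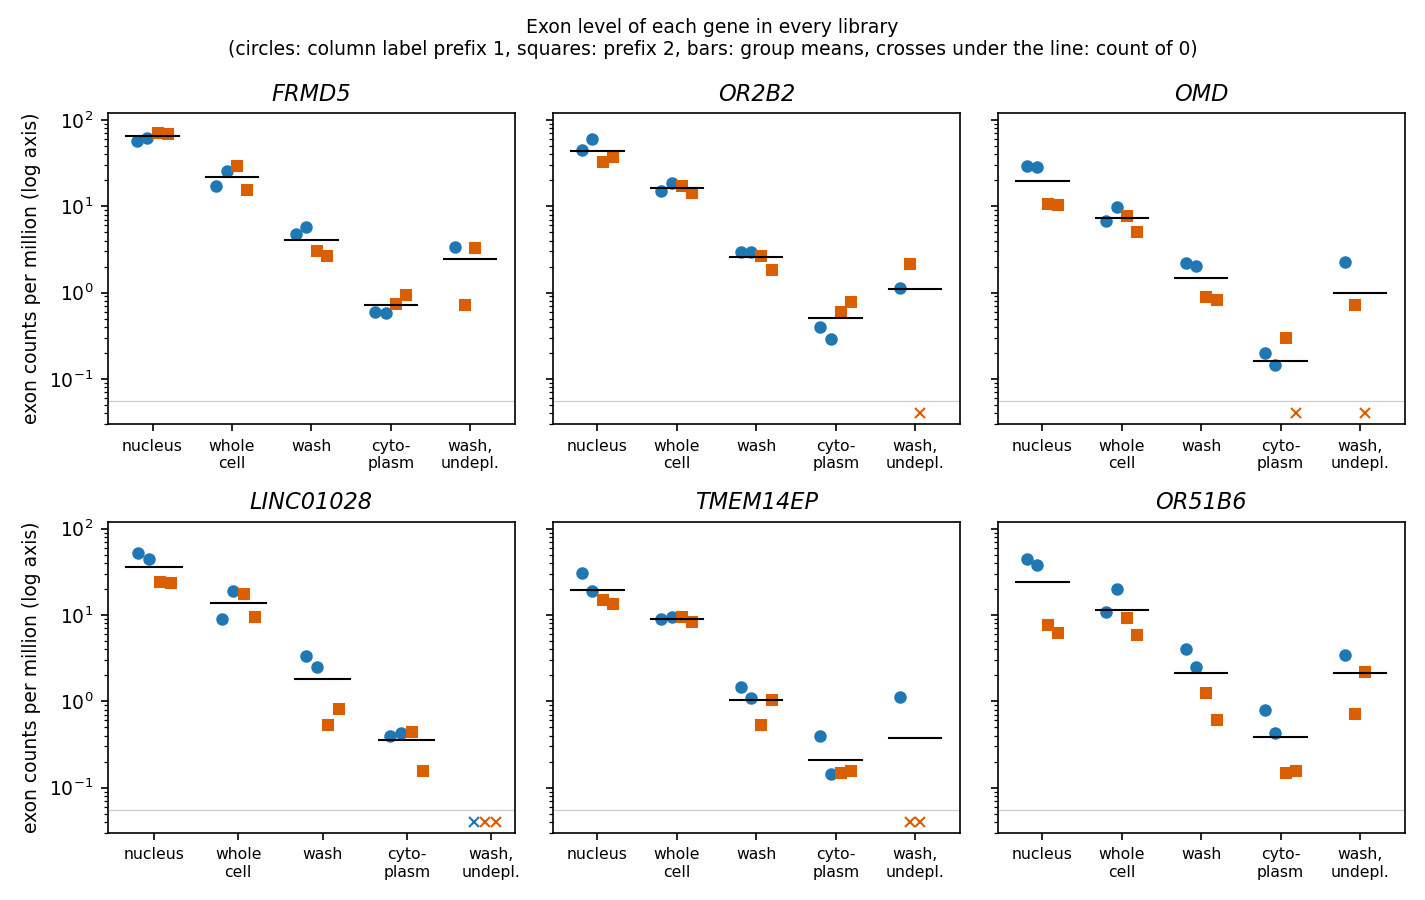
Exon level of each of the 6 genes in every library, in CPM on a log axis, by group (circles are libraries of column prefix 1 and squares of prefix 2, horizontal bars are group means, and crosses under the line a count of 0). FRMD5 falls from 57.4 to 70.7 CPM in the nucleus to 0.573 to 0.937 in the cytoplasm, and the OR51B6 nuclear libraries split into 43.9 and 37.5 against 7.62 and 6.23.

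The order nucleus, whole cell, wash, cytoplasm with no overlap between neighbours thus held for 5 of the 6 genes, and 2.26% of all 15940 tested genes showed it. The choice of genes used the outer pair of this order, so the count is a description. The fitted excess of nucleus over cytoplasm was 5.94 (OR51B6) to 6.73 (OMD) on the log2 scale, in a comparison in which 76.8% of genes passed the test and 39.3% were higher in the nucleus. There 6268 genes were called higher and 5970 lower, but 3738 lower with no composition factor and 9840 higher with no filter. Cytoplasmic counts were few: summed over 4 libraries they were 18 for FRMD5, 13 for OR2B2, 9 each for LINC01028 and OR51B6, 5 for TMEM14EP and 4 for OMD. The pooled ratio of nucleus to cytoplasm was 91.4 for FRMD5, with an exact 95% interval of 57.4 to 155, and 121 for OMD, with 46.7 to 450. These intervals cover counting error only. In bulk libraries a lower share of cells holding a transcript and less of it per cell cannot be told apart, and CPM values are shares of a library, not amounts per cell.

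The contrast of nuclear wash with whole cells was not the one used to choose the genes, and it was tested. It is not independent of that choice, because whole cells contain the nucleus. Genes picked for nuclear excess can therefore stand higher in whole cells, and the share over all genes is a loose yardstick. Of 48 tested olfactory receptors, OR2B2 and OR51B6 among them, 36 were lower in the wash and 0 higher. All 6 picked genes were lower in the wash. In this comparison 19.7% of tested genes were lower and 34.4% differed in either direction. That share moved with the scaling: of 15940 genes 3143 were lower, 6280 with no composition factor, and all 15940 with spike-in sizes, where the 6 differed from the median of all genes by -3.02 to -2.17 on the log2 scale. FRMD5 fell by 2.45 on the log2 scale (SE 0.236, adjusted p = 1.39e-07, edgeR quasi-likelihood test). OR2B2 fell by 2.65 (SE 0.236, adjusted p = 5.19e-08), and OMD fell by 2.35 (SE 0.429, adjusted p = 0.000274). LINC01028 dropped by 3.08 (SE 0.409, adjusted p = 7.61e-06) and TMEM14EP dropped by 3.18 (SE 0.326, adjusted p = 3.04e-07). OR51B6, with the widest spread, decreased by 2.57 (SE 0.604, adjusted p = 0.00249). For each of the 6 every whole-cell library was above every wash library, a separation that 16.2% of genes showed. In the depleted groups column names carry the prefix 1 for replicates 1 and 2 and the prefix 2 for replicates 3 and 4. Within prefix 1 alone the differences were -2.93 to -2.02, and within prefix 2 alone -4.36 to -2.82, and each gene was called in both.

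Between undepleted and depleted wash, only FRMD5 had enough counts to be tested. It differed by -0.39 on the log2 scale (SE 0.629, adjusted p = 0.728), in a comparison in which 11.1% of genes passed (1290, or 3778 with a replicate block). The sign of that difference turned without 1 library, as given in the closing section. LINC01028 had 0 exon counts in the 3 undepleted libraries, which allows up to 0.938 CPM (3 counts over the group, counting error only). The depleted mean was 1.79 ± 1.33 CPM (SD, n = 4). Undepleted and depleted libraries were scaled apart, so these values and the densities that follow are not on 1 scale. The gene-body counts of LINC01028 in the undepleted wash were 6, 1 and 1, over the 2152 bp that no other gene of its strand shares. Their density was 1.33 ± 1.59 CPM per kb (SD, n = 3, range 0.332 to 3.16). In the depleted wash it was 1.58 ± 0.537 (SD, n = 4, range 1.05 to 2.22). The undepleted mean rests mostly on 1 library, so these few counts do not decide whether the level was lower. The undepleted counts of the other genes summed to between 1 (TMEM14EP) and 6 (OR51B6), too few to compare.

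How much of each gene's RNA sat beside intronic RNA was read from densities, in exon or intron counts per kb on the CPM scale (CPM per kb). FRMD5 exons had 9.70 ± 0.909 (SD, n = 4) in the nucleus and its own introns 0.211 ± 0.0225, a ratio of 46.0. Among 11578 genes with measurable introns the median of this ratio was 2.16, and FRMD5 was above 99.7% of them. Nuclear exon counts also entered the choice of the genes, so ranks of picked genes on this ratio are description only. In the cytoplasm its exons had 0.106 ± 0.0251 and its introns 0.00782 ± 0.00173. The tables do not show which of the 19 exon blocks held the counts. Of 9 tested genes within 100 kb, 3 were higher in the nucleus and 3 lower, where 39.3% of all tested genes were higher. The nearest protein-coding one, WDR76, lies 2342 bp away on the plus strand. WDR76 did not pass the test between nucleus and cytoplasm, at 103 ± 8.68 and 117 ± 19.5 CPM (SD, n = 4, with -0.18 on the log2 scale, adjusted p = 0.215). On the strand of FRMD5, the noncoding gene RF00019 lies 6756 bp past its downstream end. RF00019 was higher in the nucleus by 4.60 (adjusted p = 3.21e-06, edgeR quasi-likelihood test), at 4.39 against 0.154 CPM. Read-through from FRMD5 was not tested.

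OMD exons had a density of 8.04 ± 4.34 in the nucleus, against 4.37 ± 2.39 in OMD's own introns and 3.01 ± 1.49 in the introns of CENPP on the other strand. Exons of OMD were thus 1.84 times as dense as its introns, above 41.9% of genes, and 2.64 times as dense as CENPP introns. CENPP exons had 5.74 ± 1.17 in the nucleus and 5.47 ± 1.11 in the cytoplasm, and by exon counts CENPP did not pass the test (0.07 on the log2 scale, adjusted p = 0.734). That depended on the scaling: it was called higher in the nucleus with no composition factor (0.67, adjusted p = 0.00101) and with gene-body counts, which include introns (2.05, adjusted p = 2.91e-06), and lower with spike-in sizes (-0.60, adjusted p = 0.00918). Its introns were 35.6-fold denser in the nucleus than in the cytoplasm, those of OMD 34.5-fold and the exons of OMD 124-fold. The median for the introns of all 11578 genes was 14.2. The OMD intron value rests on 25 cytoplasmic counts, at 0.127 ± 0.140 CPM per kb (SD, n = 4). By intron counts scaled on their own, OMD was called higher in the nucleus (edgeR quasi-likelihood test). That call was lost without cytoplasm replicate 1, 3 or 4 and without nucleus replicate 1 or 2. There the differences were 0.99 to 1.42 on the log2 scale (adjusted p = 0.0598 to 0.112). Its tested neighbours inside CENPP on the same strand, OGN, ASPN and ECM2, encode matrix proteins too. They were higher in the nucleus by 5.30, 5.47 and 4.88 on the log2 scale (adjusted p = 4.55e-10, 3.37e-09 and 6.12e-08). They were also lower in the wash than in whole cells, with log2 differences of -2.02 for OGN, -2.03 for ASPN and -1.6 for ECM2 (adjusted p = 0.000344, 0.0017 and 0.0125). The call of ECM2 was lost without whole cell replicate 2 (-1.32, adjusted p = 0.0557) and without wash replicate 3 (-1.29, adjusted p = 0.0504).

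TMEM14EP had an exon density of 15.0 ± 5.94 in the nucleus, below that of the MBNL1 introns around it (22.5 ± 7.41) at a ratio of 0.669. In the cytoplasm the pseudogene had 0.163 ± 0.0957 and MBNL1 introns 0.669 ± 0.117. MBNL1 exons ran the other way, at 38.3 ± 3.81 in the nucleus and 61.6 ± 4.0 in the cytoplasm (-0.68 on the log2 scale, adjusted p = 7.26e-05). With no composition factor, which moved the median of all genes to 0.64, MBNL1 was at -0.08 (adjusted p = 0.636), and with gene-body counts it was at 1.26 (adjusted p = 3.9e-06). The annotation holds a short transcript of 378 bp besides the full 1296 bp. If only the short one was counted, the nuclear density of TMEM14EP is 51.5 ± 20.4 and its ratio to MBNL1 introns 2.29. MBNL1-AS1, an antisense gene near the start of MBNL1, was also higher in the nucleus, by 3.23 on the log2 scale (adjusted p = 3.3e-10).

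LINC01028 exons, at 31.0 ± 12.6 in the nucleus, stood beside the introns of KCNJ16 on the same strand (28.3 ± 5.26) and of AC005208.1 on the other strand (26.3 ± 6.13). The ratios were 1.05 and 1.13. Gene-body counts of LINC01028 cover the 2152 bp that no other gene of its strand shares. Their density was 40.7 ± 14.4 in the nucleus and 0.743 ± 0.0618 in the cytoplasm (SD, n = 4). KCNJ16 exons had 22.3 ± 4.70, less than its introns, and AC005208.1 exons had 108 ± 44.4. By exon counts both hosts were higher in the nucleus. KCNJ16 was higher by 4.65 on the log2 scale (adjusted p = 1.85e-12, edgeR quasi-likelihood test) and AC005208.1 by 4.71 (adjusted p = 7.58e-12). In this locus the exons of all 3 genes and the introns of both hosts were denser in the nucleus than in the cytoplasm.

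**Figure D2:**
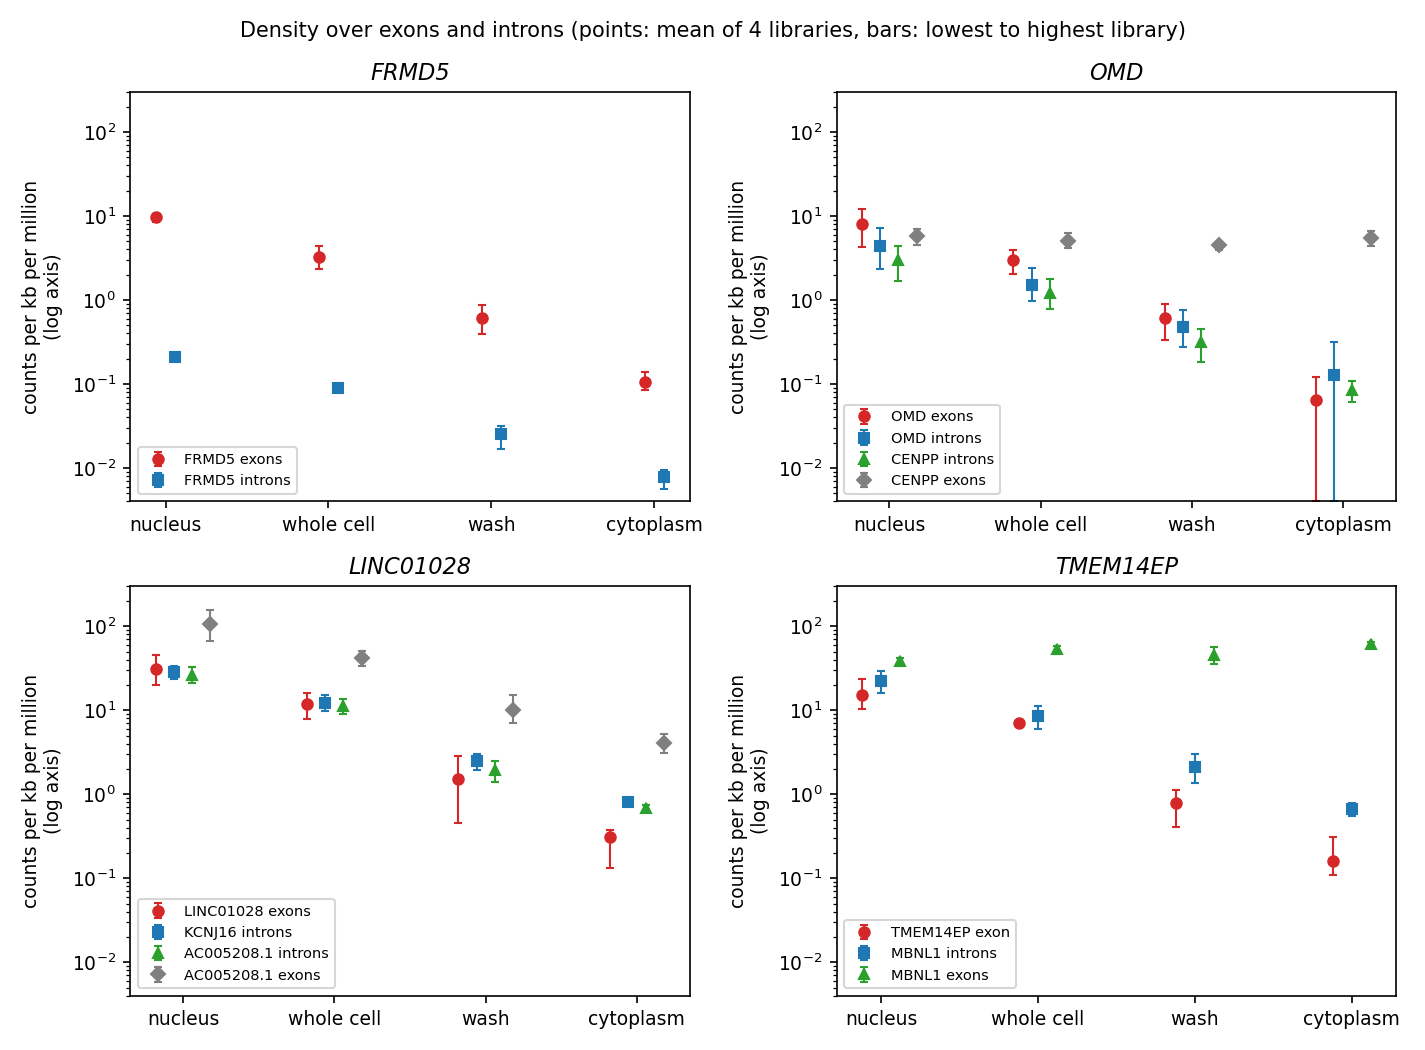
Density over exons and introns, in CPM per kb on a log axis, for FRMD5, OMD, LINC01028, TMEM14EP and the genes they lie in (points are means of 4 libraries, bars run from the lowest to the highest library, and bars that reach 0 run to the lower edge). FRMD5 exons lie far above its introns. In the nucleus LINC01028 exons lie near the introns of its hosts. OMD exons lie above CENPP introns there (8.04 against 3.01), and TMEM14EP lies below MBNL1 introns (15.0 against 22.5). The exons of CENPP and MBNL1 do not fall towards the cytoplasm as those of the inner genes do (MBNL1 38.3 in the nucleus and 61.6 in the cytoplasm).

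The ratio of exon density to host intron density was tested between wash and whole cells, over 4 libraries each. On the log2 scale the mean in the wash minus that in whole cells was -0.33 for OMD over CENPP (exact permutation p = 0.0571) and -1.05 for TMEM14EP over MBNL1 (exact permutation p = 0.0286, the smallest that 4 against 4 can give). For LINC01028 over AC005208.1 it was -0.57 (exact permutation p = 0.343). Adjusted over these 3 pairs, the two-sided p-values were 0.0857, 0.0857 and 0.343, so none passed. FRMD5 over its own introns gave -0.60 (exact permutation p = 0.114, adjusted p = 0.171 over all 6 pairs), LINC01028 over KCNJ16 introns -0.80 (exact permutation p = 0.2) and OMD over its own introns -0.63 (exact permutation p = 0.0286, adjusted p = 0.0857). All 6 means were below 0. The exon counts in these ratios belong to genes picked for nuclear exon excess, and whole cells contain the nucleus. A lower ratio in the wash can therefore come with the choice of genes. No share over other genes is given for this difference, so the shared direction is description only. By replicate number, the wash was below whole cells in 4 of 4 pairs for TMEM14EP over MBNL1 (-1.18 to -0.85), OMD over CENPP (-0.65 to -0.11), OMD over its own introns (-0.80 to -0.43) and FRMD5 over its own introns (-0.94 to -0.13), and in 3 of 4 for LINC01028 over either host. A paired exact permutation test of 4 pairs cannot give less than p = 0.125. The host introns of OR51B6 share their span with other genes of their strand, so no ratio could be formed for it.

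As a yardstick, 1623 genes that lie inside an opposite-strand gene were measured in the nucleus in the same way. Their median ratio to the host intron was 0.902, with quartiles of 0.389 and 1.79. OMD, at 2.67, was above 86.3% of them and TMEM14EP, at 0.668, above 38.8%. These ranks use the nuclear exon counts by which both genes were picked, so they are description only. Processed pseudogenes among them, the class of TMEM14EP, had a median of 0.585 (n = 639). Of all 1623, 45.4% were denser than the host's introns.

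**Figure D3:**
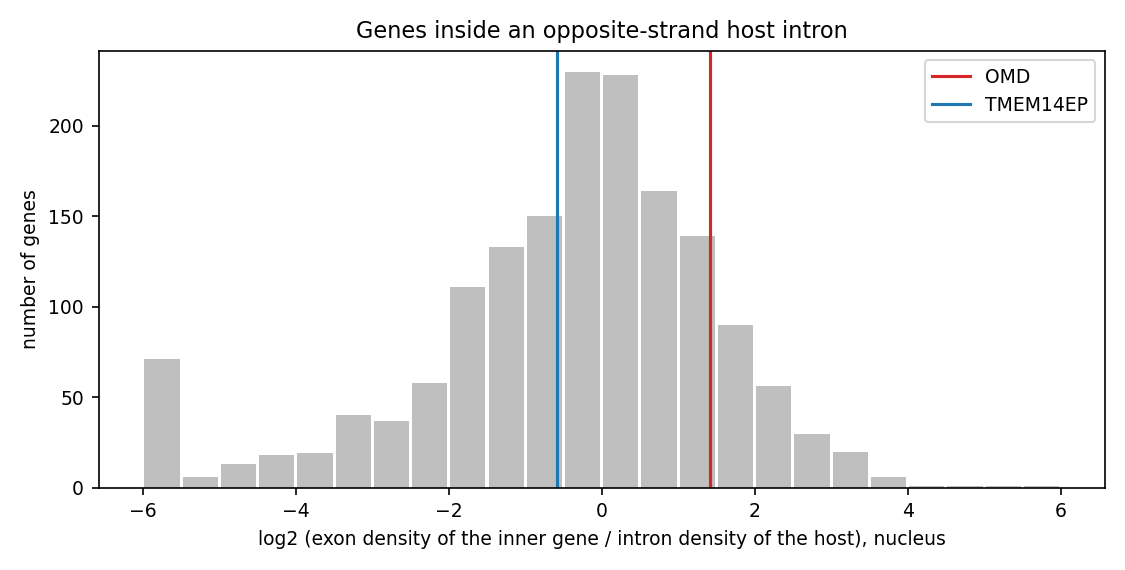
Number of genes (vertical axis) by the log2 ratio of an inner gene's exon density to its host's intron density in the nucleus (horizontal axis), for 1623 genes inside an opposite-strand gene, with the leftmost bar also holding all lower ratios. TMEM14EP (0.668) lies near the middle and OMD (2.67) in the upper part of the distribution.

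OR51B6 lies in the beta-globin locus, where a row of olfactory receptor genes surrounds the globin genes. Besides OR51B6 itself, all 5 tested plus-strand receptor genes within the HBG2 span were higher in the nucleus than in the cytoplasm. OR51B6 was picked by that contrast, in which 39.3% of all tested genes were higher. Receptors pass the count filter mainly through the group where they are high, so such counts are description only. In the nucleus the density of OR51B6 was 25.4 ± 21.0, that of OR51J1 19.0 ± 11.5, that of OR51Q1 37.5 ± 22.6 and that of OR52D1 146 ± 83.7. In the cytoplasm these were 0.406 ± 0.324, 0.480 ± 0.300, 1.23 ± 0.819 and 7.46 ± 3.77. Of 7 tested receptors wholly within the span on the minus strand, 6 were higher in the nucleus and 1 lower. OR51B4, that one, had 14.4 ± 4.34 in the nucleus and 27.9 ± 5.80 in the cytoplasm (-0.93 on the log2 scale, adjusted p = 0.000311, or -0.33 and 0.162 with no composition factor), and OR51B5, whose models run past the end of the span, had 13.3 ± 5.01 and 27.6 ± 3.44 (-1.06, adjusted p = 3.25e-05). The globins were cytoplasmic, with HBG2 at -3.56 and HBE1 at -3.26 (adjusted p = 1.48e-12 and 2.06e-13). Beyond the upstream end of the HBE1 models, the receptor gene OR52H1 had a summed count of 1 in the nucleus.

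**Figure D4:**
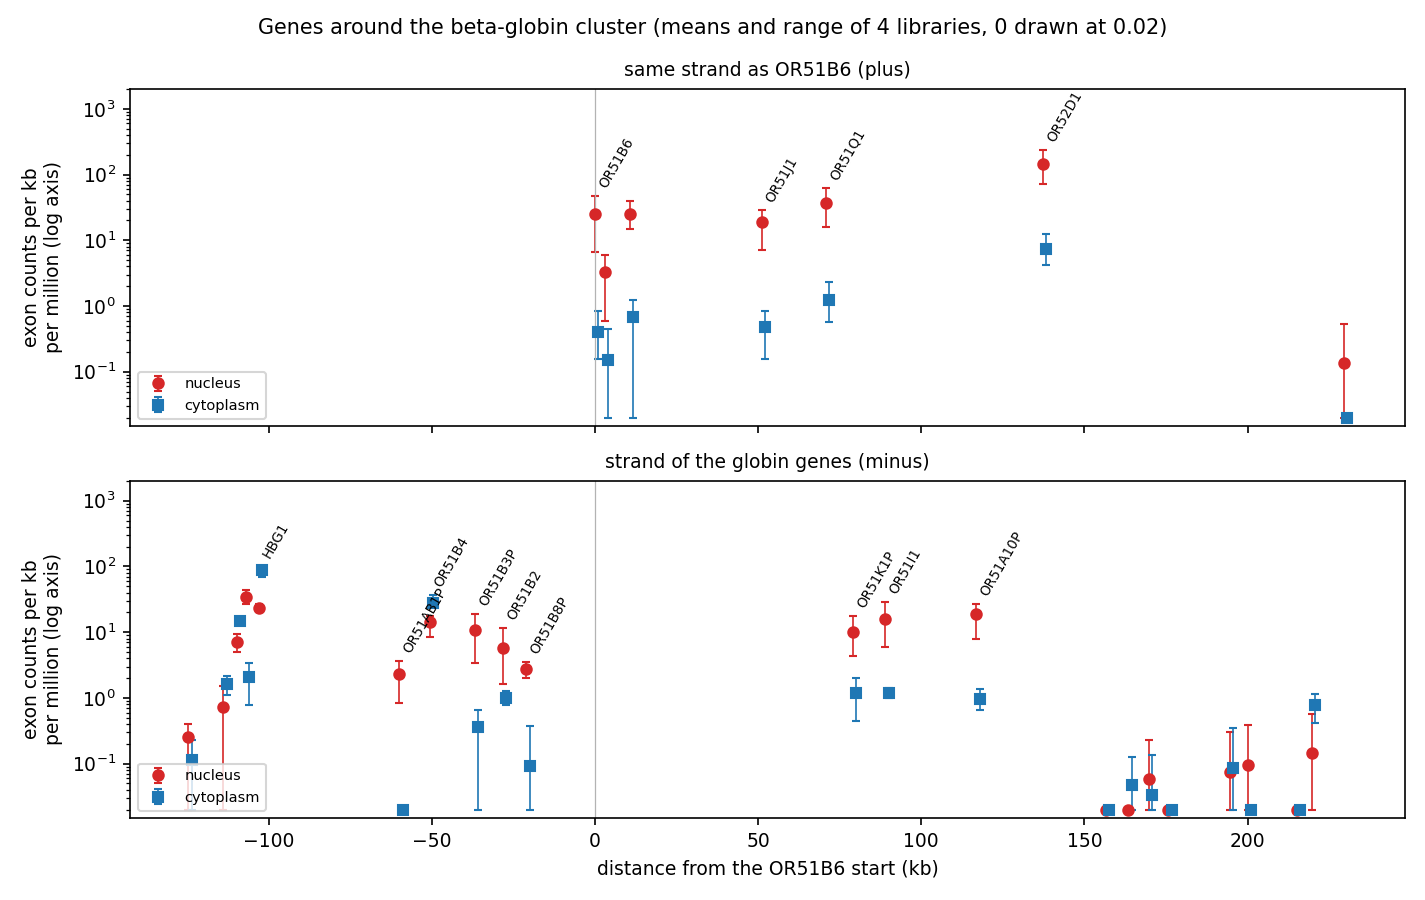
Exon density of genes around OR51B6, in CPM per kb on a log axis, against the distance from the OR51B6 start in kb, by strand, in nucleus and cytoplasm (points are means and bars the range of 4 libraries, with 0 drawn at 0.02). On the plus strand the genes drawn within the HBG2 span are denser in the nucleus, and on the minus strand OR51B4 is denser in the cytoplasm (27.9 against 14.4).

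OR2B2 has no host, and its neighbours went both ways. Of 14 tested genes within 100 kb, 10 were lower in the nucleus, all of them histone genes, whose mRNAs are cytoplasmic and lack poly(A) tails. Only RNU7-26P (4.84 on the log2 scale), OR2W6P (3.38) and OR2B6 (2.04) were higher, with adjusted p = 1.2e-07, 2.35e-08 and 1.46e-06. With gene-body counts OR2B6 was at 0.55 (adjusted p = 0.0769) and not called. The density of OR2B2 in the nucleus, 35.9 ± 9.80, was above that of both receptor neighbours, OR2W6P at 12.7 ± 3.66 and OR2B6 at 14.5 ± 1.30. RNU7-26P lies on the strand of OR2B2, 13619 bp away, and the other receptors on the opposite strand.

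Among the families of these genes the nuclear excess was shared unevenly. Of 840 olfactory receptor genes and pseudogenes, 667 (79.4%) had 0 counts in the nucleus. In the nucleus 14 receptors in the HBG2 span took 48.8% of all receptor counts, and OR2B2 and OR51B6 ranked 5 and 7 by counts summed over the 4 libraries. The counts of OR51B6 were 98, 109, 28 and 12, and in replicates 3 and 4 it lay below OR51B4 (49 and 15). Of the 34 receptors other than OR2B2 tested outside the span, 30 were higher in the nucleus and 1 lower. Their median was 4.44 on the log2 scale, against 0.03 for all genes. A receptor passes the count filter mainly through the group where it is high, so these counts describe the receptors with reads only. Of 12 small leucine-rich proteoglycans, the family of OMD, only OMD, OGN and ASPN were tested, and all 3 lie inside CENPP.

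In this contrast 37.5% of all tested genes were lower in the nucleus. Without FRMD5, 14 genes of the FERM-domain band 4.1 family were tested, of which 5 were higher and 5 lower in the nucleus, with a median of 0.09. EPB41L4A rose by 3.07 (53.4 ± 13.9 CPM against 6.30 ± 1.29), while MSN, which encodes moesin, fell by 1.81. The 3 tested relatives of TMEM14EP were all lower in the nucleus, TMEM14B by -1.24 and TMEM14A by -2.96. In the CENP-O complex 2 of 5 genes were lower, CENPQ (-0.73) and CENPU (-0.71), with none higher. Of the beta-globin genes, 4 of 5 tested were lower, and of 9 regulators of globin genes 6 were lower and 2 higher (SOX6 by 1.75 and MYB by 0.38).

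The nuclear libraries of both column prefixes differed for some of these genes. OR51B6 was higher in prefix 1 by 2.51 on the log2 scale (adjusted p = 7.83e-06), OMD by 1.45 (adjusted p = 0.00204) and LINC01028 by 1.02 (adjusted p = 0.0189). In this comparison 5.98% of genes differed and 3.48% were higher in prefix 1. OR2B2 (0.60, adjusted p = 0.0651), TMEM14EP (0.76, adjusted p = 0.0945) and FRMD5 (-0.22, adjusted p = 0.622) did not pass. Host introns and exons did not follow 1 pattern. CENPP introns were higher in prefix 1 by 1.09 (adjusted p = 1.44e-07), MBNL1 introns by 0.62 (adjusted p = 0.000246) and AC005208.1 introns by 0.36 (adjusted p = 0.0164), where 21.1% of genes differed in introns. KCNJ16 introns did not pass (0.24, adjusted p = 0.0806), nor did CENPP exons (0.50, adjusted p = 0.054) and MBNL1 exons (0.23, adjusted p = 0.467), while AC005208.1 exons did (1.06, adjusted p = 0.000868). In the globin locus OR51Q1 (1.66, adjusted p = 6.38e-06) and OR52D1 (1.54, adjusted p = 2.97e-07) rose with OR51B6. In the wash LINC01028 (2.00, adjusted p = 0.0407) and OR51B6 (1.63, adjusted p = 0.0498) were higher in prefix 1, where 12.8% of genes differed. In whole cells, where 2.26% of genes differed, none of the 6 passed. OR51B6 was close there, at 1.04 (adjusted p = 0.0506, edgeR quasi-likelihood test). Its neighbours OR51Q1 (0.89, adjusted p = 0.0103) and OR52D1 (0.95, adjusted p = 0.00038) passed in whole cells. OR51B4 (0.11, adjusted p = 0.881) and OR51B5 (0.06, adjusted p = 0.935) did not. The contrast of wash with whole cells itself differed between prefixes for 0.703% of genes and for none of the 6. What the prefix stands for is not said in the labels, and its part in these differences was not tested.

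**Figure D5:**
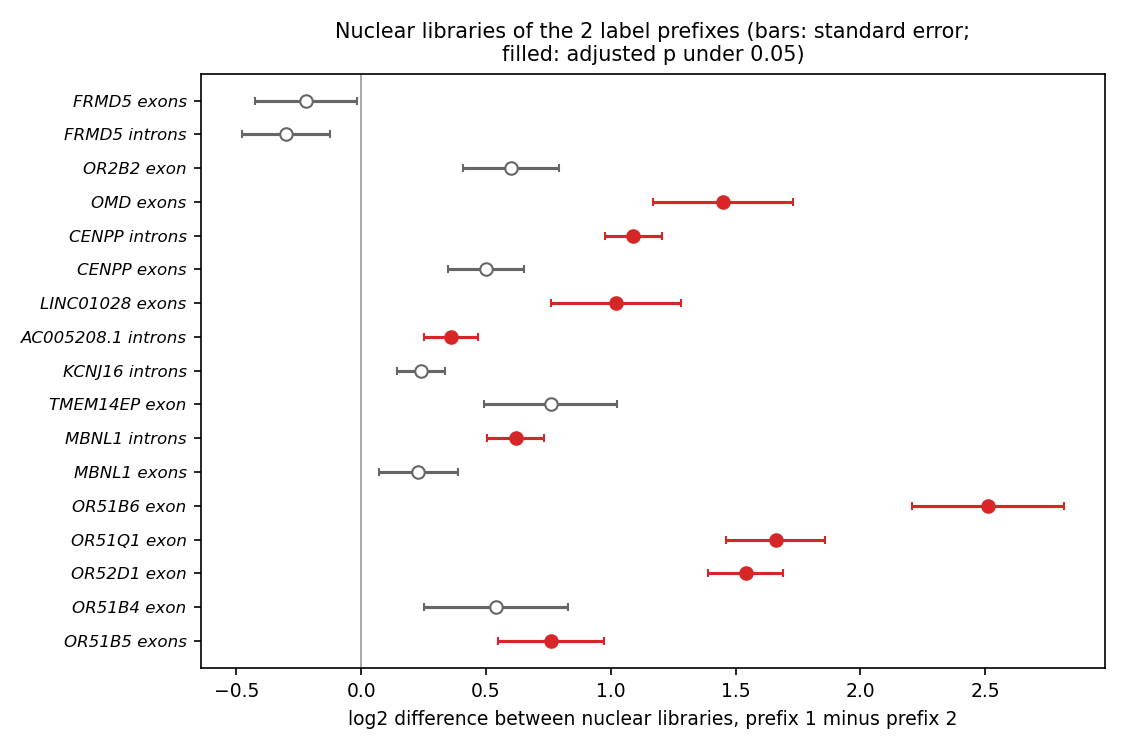
Log2 difference between the nuclear libraries of column prefix 1 and prefix 2 (horizontal axis) for the 6 genes, host introns and exons, and receptor genes of the globin locus (points are fitted values, bars standard errors, filled points an adjusted p under 0.05). OR51B6 is at 2.51, OMD at 1.45 beside CENPP introns at 1.09, and FRMD5 at -0.22.

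Over the 16 depleted libraries, the genes whose levels were most like FRMD5 were FSIP2 (Pearson r = 0.995) and LHX4 (0.992), those most like OR2B2 were FRMD5 (0.991) and LINC00645 (0.99), and those most like TMEM14EP were ATXN3L (0.995) and AC004674.1 (0.989). For OMD they were AC144833.1 (0.993) and KCNQ1OT1 (0.991), an antisense noncoding RNA of an imprinted locus. LINC01028 was closest to ANKRD36 (0.99) and AC009951.1 (0.989). OR51B6 had the fewest close matches: 32 genes reached r = 0.95 with it, against 212 to 362 for the others, and its nearest were TMPRSS11CP (0.98) and GRM7-AS3 (0.973). The 16 libraries fall into the same 4 groups for every gene, so high values describe a shared order of fractions.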

How the data were processed

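The authors deposited raw read counts per gene over exons and over gene bodies, with no normalization. Per the submitters' processing notes, cutadapt 2.5 and featureCounts 1.6.2 were used beside STAR 2.7.0a, on hg38. The annotation release was not given in the sources used here, nor was the strand setting. Per the labels' protocols, libraries were stranded total RNA with yeast spike-ins, which were left out of library sizes. Positions and lengths came from GENCODE 29 (57447 of 58051 identifiers matched), so densities carry that difference in annotation: 50 of 11414 multi-exon genes had equal exon and body counts in every library, and OR51M1 and OR51I2 among them are given no density.

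Exon counts and intron counts (body minus exon, at least 0) were tested with edgeR 4.0.16 in R 4.3.3 (quasi-likelihood, TMM, filterByExpr, Benjamini-Hochberg over all tested genes, threshold 0.05). The 16 depleted libraries were fitted together, and the 7 wash libraries apart. Density ratios used a pseudocount of 0.5 counts and two-sided exact permutation tests (scipy 1.17.1). Scripts were tested on simulated data. Alternatives were other scalings, DESeq2 1.42.0, no filter, left-out libraries, gene-body counts, spike-in sizes, single prefixes and a replicate block. Same-numbered depleted libraries deviated together (correlations 0.104 to 0.379). Numbers were taken as pairs only in the replicate block and in the counts by replicate number. The main tests, undepleted against depleted wash included, were unpaired. Undepleted replicate 2 has prefix 2 and depleted replicate 2 has prefix 1, so an equal number does not mark a pair there. Undepleted column names repeat sample codes of depleted wash columns, which may mean shared wash samples. The members and lists were chosen with earlier results of these data known; the tests between prefixes and the pairs with KCNJ16 and own introns were added after the counts were seen. Genes are named by rule: the members, overlapping genes, nearest tested neighbours and list extremes, and the 2 most correlated genes at 5 CPM or more. GRCh38 is also called hg38.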

Additional observations from a re-analysis of the deposited data

Results flagged for a closer look

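Among 24 groups of 4 libraries checked for a library far from the others, 2 were flagged, and chance flags about 1 in 20. In the cytoplasm the lowest LINC01028 library was at 0.156 CPM, from 1 count, and the highest TMEM14EP library was at 0.397 CPM, from 2 counts, so either value rests on a few reads. KCNJ16, the host of LINC01028, differed between column prefixes in its exon contrast of wash with whole cells by 1.32 on the log2 scale (adjusted p = 0.0333, edgeR interaction term), where 0.703% of genes did. LINC01028 itself differed by 1.90 (adjusted p = 0.275), which did not pass.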

How the results depend on the processing

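The calls of all 6 genes between wash and whole cells, 17 alternatives each (102 values), kept their direction and their side of the threshold. Gene-body counts gave the smallest falls (FRMD5 -1.59, OMD -1.43), and spike-in sizes gave -7.53 to -6.68 where the median of all genes moved by -4.51. The number of genes called there went from 5477 to 3485 with prefix 1 alone and to 15940 with spike-in sizes, all of them lower, and to 4485 to 5458 without single replicates. For undepleted against depleted wash, 1290 calls became 3999 with no composition factor, 1987 with no filter, 3778 with the replicate block, and 459 to 1492 without single replicates; 459 was without undepleted replicate 3 and 468 without undepleted replicate 2, and 768 and 799 were without depleted replicates 2 and 3. FRMD5 in that contrast ran from -0.72 to 0.19 without single undepleted replicates, the sign turning without replicate 2. The replicate block turned 1 call of a named gene, OR51B5 between wash and whole cells (-0.47, adjusted p = 0.0219). CENPP exons between nucleus and cytoplasm turned to -0.09 with no filter, -0.07 and -0.04 without cytoplasm replicates 3 and 4, -0.02 without nucleus replicate 1 (from -0.07 to 0.20 over single replicates left out), and -0.60 with spike-in sizes (adjusted p = 0.00918), where the median of all genes was also -0.60. MBNL1 turned to 1.26 with gene-body counts, which include its introns. Density ratios passed the threshold with a pseudocount of 0.1 (OMD over CENPP -0.40, TMEM14EP over MBNL1 -1.16) and with host gene-body counts (-0.75 and -1.73). Each was at adjusted p = 0.0429 (exact permutation test). With a pseudocount of 2 neither passed. There OMD over CENPP shrank to -0.10 (exact permutation test, adjusted p = 0.486) and TMEM14EP over MBNL1 to -0.72 (adjusted p = 0.0857). A test of 4 pairs cannot go below 0.125, so the replicate block cannot pass. Scaling by RLE moved the median of nucleus minus cytoplasm from 0.03 to 0.16, and no composition factor to 0.64. Depth limits the cytoplasmic and undepleted values, which rest on 0 to 18 counts per gene and group.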
